A study of Mus musculus with 11 samples.

Results

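The cornified envelope and barrier genes were measured in CD34+ and CD34- keratinocyte fractions of K5-myrAkt(L84) mouse skin. The set comprised 49 of the 18193 genes with a named probe set on the array, and 60 of the 34945 probe sets with 1 gene symbol. Members were chosen by symbol only: the Lce and Sprr genes, plus genes named one by one, from the envelope proteins Lor and Flg to the lipid enzymes Elovl4 and Cers3. Each gene was read through its brightest probe set over all 11 arrays. Of the 49, 33 were bright enough to be tested, their mean log2 signals starting at 6.59, and 16 lay among the dimmest 40% of genes and were not. Affymetrix arrays recorded total RNA of 5 CD34+ and 6 CD34- samples, separated from back-skin keratinocytes with a CD34 antibody and magnetic beads. All 11 samples carried the transgene, an activated, membrane-bound Akt under the keratin 5 promoter, which is active in basal and follicle keratinocytes, and no sample without it was analysed here, so no difference given here measures an effect of Akt. CD34 marks stem cells of the mouse hair follicle bulge. The CD34- samples carry a cell type label that also speaks of follicle stem cells, while the design text calls them only CD34- cells, so their identity is uncertain. The labels give no age, sex, hair cycle stage or batch and leave unsaid whether each array had mice of its own. The p-values therefore cover the spread among these samples alone, which may be technical. CD34+ array 1 stood apart from the other CD34+ arrays, with strong hair shaft RNA, and CD34- arrays 1 and 2 stood apart from the other CD34- arrays, with more melanocyte and less T cell RNA.

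The cornified envelope is the protein shell that replaces the plasma membrane of a keratinocyte as it dies at the skin surface. Transglutaminases crosslink a scaffold of envoplakin, periplakin and involucrin, then reinforce it with loricrin, small proline-rich (SPRR) proteins, late cornified envelope (LCE) proteins and filaggrin-type proteins. Ceramides made and delivered by enzymes and transporters of the granular layer are bound to the outside of the shell. Loricrin, involucrin, the SPRR, LCE and S100 fused-type genes lie side by side in the epidermal differentiation complex, and most are switched on in suprabasal layers and in the infundibulum rather than in the resting bulge.

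Among the tested envelope genes, more were called higher than lower in the CD34+ fraction. Values are log2 signal, a positive difference means a higher log2 signal in the CD34+ fraction, and a gene was called at a limma adjusted p under 0.05 over 10916 genes. Among the 33 tested members 14 were higher in CD34+ samples, where 12.4% of all tested genes were called higher, and 3 were lower, where 12.3% were called lower. The median difference of the 33 members was 0.62, and that of all tested genes was -0.00. All arrays of the fractions were separated for 10 of the 33 tested members. In 9 of these CD34+ was higher, against 7.64% of all tested genes, and in 1 it was lower, against 7.37%. Because a dim gene passes the brightness filter more easily if 1 fraction is bright, the comparison was also made without the filter: 16 of the 49 were then higher, with 8.23% of all 18193 genes, and 3 were lower, with 6.44%. In bulk samples, more cells of a type and more RNA per cell cannot be told apart, nor can fewer cells and less RNA.

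The number of calls depended on the scaling and on the RNA length measure of the arrays. With the array medians made equal, the median difference of all tested genes was -0.48, 395 genes were called higher and 5217 lower, and the members split into 9 higher and 7 lower. The members' median exceeded that of all tested genes by 0.63 with and without this step. That gap could not change here, because the step moves the difference of every gene by the same amount. With quantile normalization the gap was 0.40. The log2 ratio of the 3-prime to the 5-prime actin control probe sets, which is larger where RNA or its labelled copies are shorter, was 2.905 to 5.245 in the CD34+ samples. It was 2.186 to 2.76 in the CD34- samples, with no overlap. When the model included this ratio, the median standard error over all genes was 0.279 in place of 0.187, and only 126 genes were called. In that model 1 member, Tgm5, stayed higher while none was lower, and the members' median exceeded that of all tested genes by 0.31. Since the ratio did not overlap between fractions, the model separates ratio and fraction poorly, and its values for single genes are imprecise. A changed sign in it was not a call for any member. Without CD34+ array 1, 15 members were higher and 3 lower. Without CD34+ array 3, CD34- array 4 or CD34- array 6 the count of higher members was 9.

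**Figure D1:**
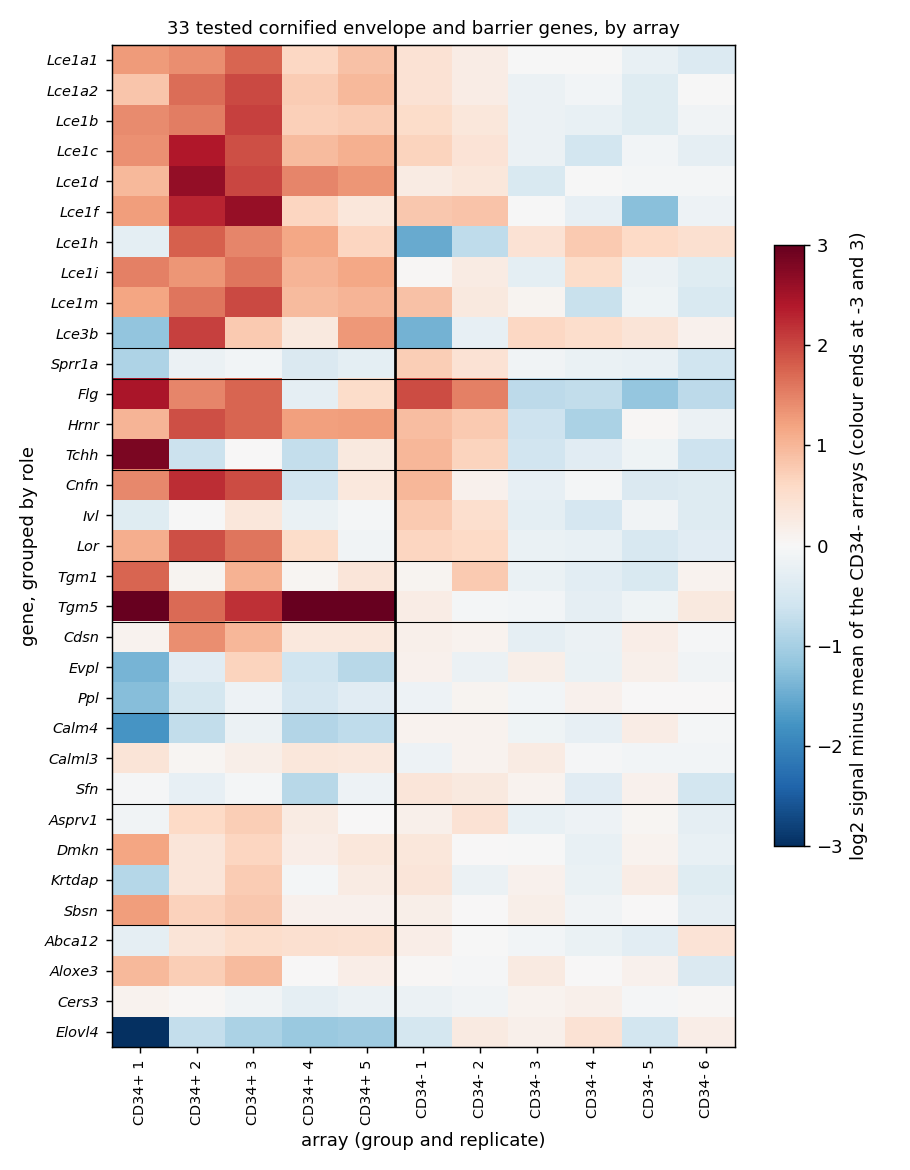
Log2 signal of each of the 33 tested members (vertical axis, grouped by role) on the 5 CD34+ and 6 CD34- arrays (horizontal axis), minus the mean of the CD34- arrays, with colours ending at -3 and 3. The Lce1 rows, except Lce1h on CD34+ array 1, and Tgm5 are red on the CD34+ side, Calm4, Ppl and Elovl4 are blue there, and CD34- arrays 1 and 2 are redder than the other CD34- arrays for Lor, Flg and Tchh.

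**Figure D2:**
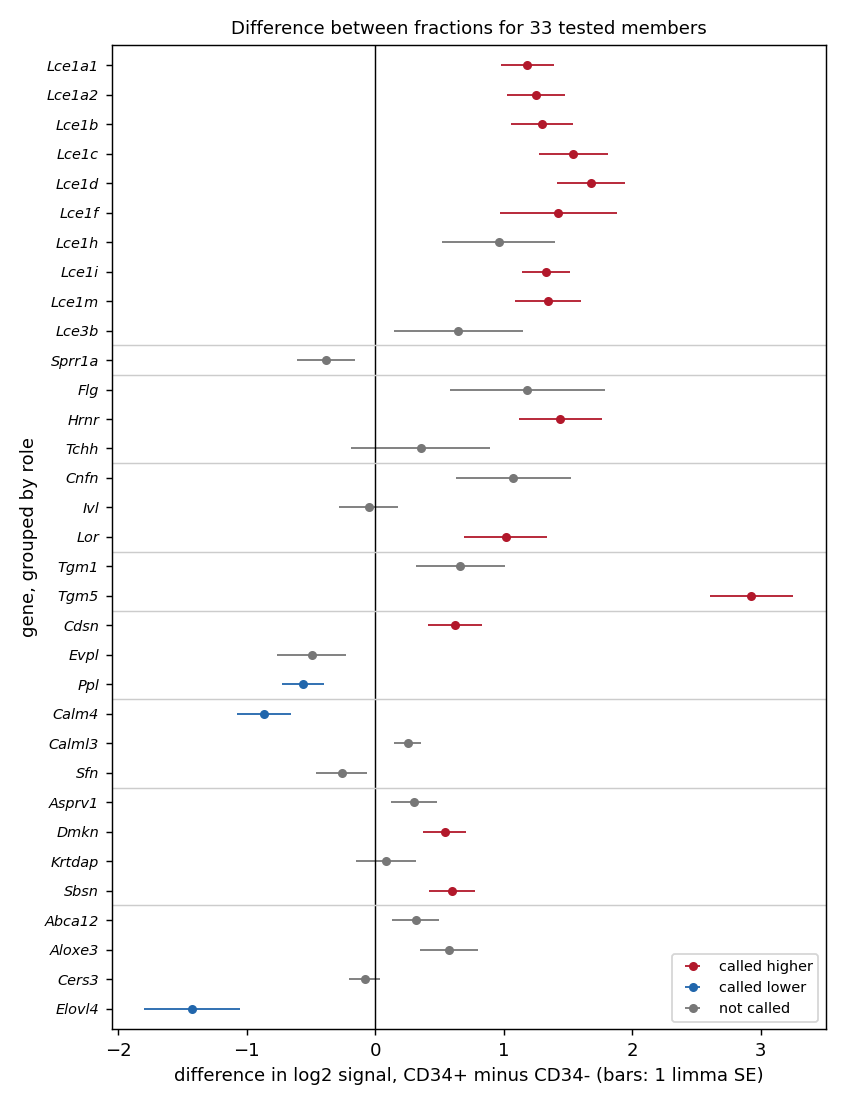
Difference in log2 signal between fractions, CD34+ minus CD34- (horizontal axis), for the 33 tested members by role (vertical axis), with bars of 1 limma standard error. The points run from -1.42 for Elovl4 to 2.93 for Tgm5.

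The Lce1 genes formed the largest block of higher members. LCE proteins are small, cysteine-rich and glycine-rich proteins added to the envelope late in cornification. The array named 11 Lce1 genes and 9 were tested. Of these, 8 were higher in CD34+ samples, where 12.4% of all tested genes were called higher. For 7 the fractions did not overlap, with CD34+ higher, against 7.64% of all tested genes. The 9 differences ran from 0.96 to 1.68 with a median of 1.33. Some of these probe sets may share signal, as given below. RefSeq promoter sequences (GRCm38.p6) were available for 10 of the 11 Lce1 genes, and the last 100 bases before each gene start are shown to set the promoters of the largest block of higher members side by side. Capitals mark the letters ATAAAAG, chosen after the sequences were seen.
Lce1a2, chr3:92670316-92670415, minus strand: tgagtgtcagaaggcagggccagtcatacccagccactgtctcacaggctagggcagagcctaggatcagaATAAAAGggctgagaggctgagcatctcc
Lce1c, chr3:92679147-92679246, plus strand: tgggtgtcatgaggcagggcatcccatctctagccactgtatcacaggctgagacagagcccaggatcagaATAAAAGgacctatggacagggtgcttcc
Lce1d, chr3:92687211-92687310, minus strand: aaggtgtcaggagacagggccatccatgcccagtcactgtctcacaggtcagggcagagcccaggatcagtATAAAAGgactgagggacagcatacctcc
Lce1g, chr3:92752339-92752438, minus strand: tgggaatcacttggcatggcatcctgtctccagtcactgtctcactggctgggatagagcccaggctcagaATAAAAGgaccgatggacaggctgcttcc
Lce1h, chr3:92765066-92765165, minus strand: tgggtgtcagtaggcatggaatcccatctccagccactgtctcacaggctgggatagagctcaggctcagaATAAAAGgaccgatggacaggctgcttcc
Lce1i, chr3:92778900-92778999, minus strand: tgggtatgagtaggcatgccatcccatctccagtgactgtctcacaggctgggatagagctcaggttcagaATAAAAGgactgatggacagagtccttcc
Lce1l, chr3:92851287-92851386, minus strand: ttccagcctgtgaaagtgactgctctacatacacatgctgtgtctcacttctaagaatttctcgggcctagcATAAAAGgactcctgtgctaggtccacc
Lce1m, chr3:93019062-93019161, minus strand: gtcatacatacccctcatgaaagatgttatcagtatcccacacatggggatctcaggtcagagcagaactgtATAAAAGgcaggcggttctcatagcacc
Lce1a1, chr3:92648308-92648407, minus strand: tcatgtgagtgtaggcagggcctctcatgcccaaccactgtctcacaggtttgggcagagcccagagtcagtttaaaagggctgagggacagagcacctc
Lce1b, chr3:92656927-92657026, minus strand: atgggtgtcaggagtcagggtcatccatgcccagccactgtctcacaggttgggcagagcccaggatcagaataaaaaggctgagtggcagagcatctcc

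The letters ATAAAAG, read on both strands over 250 bases before the gene start, were found in 8 of these 10 promoters. They began 29 bases before the start in 6 of them and 28 bases before it in Lce1l and Lce1m. Lce1a1 and Lce1b had no exact match. The same letters occurred in 3 of the 33 other members with a promoter, which were Lce3b, Lce3c and Lce3f. They were in 4.83% of 32851 promoters of the table. A member was counted if any of its promoters held the letters, whereas that share is of single promoters. ATAAAAG can overlap TATAAA, as it does in Lce1d and Lce1m. Compared position by position, the 6 windows of Lce1a2, Lce1c, Lce1d, Lce1g, Lce1h and Lce1i shared 66 to 90 of 100 bases in their 15 pairs. In the 17 pairs with Lce1l or Lce1m the count was 22 to 37, and in the other 13 pairs, which hold Lce1a1 or Lce1b, it was 20 to 56. Lce1a1, Lce1b and Lce1m were called higher although their windows were unlike the 6, and Lce1g and Lce1h are among the 6 but were not tested or not called. Sequences shifted by a few bases count as unlike in this comparison. The match is a description of sequence and was not linked to the expression values.

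Lce1d had the largest difference among the tested Lce1 genes. Its log2 signals were 8.38, 10.03, 9.41, 8.87 and 8.74 on CD34+ arrays 1 to 5, and 6.95 to 7.76 with a median of 7.37 on CD34- arrays. Every CD34+ array lay above every CD34- array. The difference was 1.68 (SE 0.27, 3.20-fold, limma adjusted p = 0.000869). Lce1c was at 11.24, 12.27, 11.82, 10.83 and 10.95 on the CD34+ arrays and between 9.33 and 10.55, median 9.75, on the CD34- arrays. The fractions again did not overlap, and CD34+ arrays 2 and 3 were the brightest. The Lce1c difference was 1.54 (SE 0.27, 2.91-fold, limma adjusted p = 0.0017).

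Lce1i had the smallest standard error of the group. It measured 9.80, 9.62, 9.90, 9.31 and 9.44 in the CD34+ samples, against 7.93 to 8.84 with a median of 8.21 in the CD34- samples, a difference of 1.33 (SE 0.19, limma adjusted p = 0.000399). Lce1m, which lies apart from the rest of the family beyond the Lce3 genes, gave 11.14, 11.56, 11.94, 10.90 and 10.98 against 9.30 to 10.84, median 9.93. The lowest CD34+ array exceeded the highest CD34- array by a narrow margin. Its difference was 1.35 (SE 0.26, limma adjusted p = 0.00286). Lce1a1, Lce1a2 and Lce1b had differences of 1.18 (SE 0.20), 1.25 (SE 0.22) and 1.30 (SE 0.25), also without overlap, and a second Lce1a1 probe set gave 1.31.

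Lce1f and Lce1h were less even. Lce1f was at 7.98, 9.02, 9.36, 7.38 and 7.07 in CD34+ samples and 5.48 to 7.60, median 6.66, in CD34- samples. The fractions overlapped, with CD34+ arrays 4 and 5 under the highest CD34- array. Its difference of 1.42 (SE 0.46, limma adjusted p = 0.0357) was not called without CD34+ array 2 or 3 or CD34- array 3, 4, 5 or 6. Lce1h, at 7.25, 9.34, 9.01, 8.71 and 8.19 against 6.02 to 8.33, was not called (0.96, SE 0.44, limma adjusted p = 0.123), and was called without CD34+ array 1, at 1.27. The dim Lce1g and Lce1l, below the filter, differed by 1.36 and 1.66, and Lce1l was called in the fit without a filter (limma adjusted p = 0.0446). Of the 9 tested Lce1 probe sets, 4 have the suffix that Affymetrix gives to sets open to cross-hybridization and 1 the suffix of sets shared by transcripts, so the near-identical paralogs may share signal and their count is not a count of independent genes. In the model that includes the actin ratio the Lce1 median was 1.06 and none of the 9 was called.

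The Lce3 genes, a subfamily best known from injured and inflamed skin, were mostly dim. Only Lce3b was tested: it measured 5.83, 9.08, 7.82, 7.31 and 8.32 in CD34+ samples and 5.60 to 7.66 in CD34- samples, with overlap, and was not called (0.65, SE 0.50, limma adjusted p = 0.363). Lce3a, Lce3c and Lce3f lay below the filter with differences of 0.82, 0.49 and -0.88, and the fractions overlapped for each.

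The SPRR genes, whose proline-rich products bridge other envelope proteins and which are induced by stress, were read mostly through dim probe sets. Of the 9 with a probe set of their own only Sprr1a was tested. Sprr1a was at 9.96, 10.71, 10.80, 10.45 and 10.59 in CD34+ samples and 10.28 to 11.62, median 10.72, in CD34- samples. The fractions overlapped and it was not called (-0.38, SE 0.22, limma adjusted p = 0.221). The other 8 were below the filter. Among them Sprr2i was at 6.18, 4.78, 4.65, 3.72 and 4.44 against 1.58 to 3.42, with no overlap, but each of these values lay under the 40th percentile of its array. Its difference was 2.47, and Sprr2i was called in the fit without a filter (limma adjusted p = 0.0171). Sprr1b, Sprr2k and Sprr2f differed by 1.80, 1.38 and 1.00, Sprr2h and Sprr2j-ps by 0.43 each, Sprr3 by 0.30 and Sprr2d by -0.10, and the fractions overlapped for all 7. None of these 7 was called in the fit without a filter, and Sprr2k was called when only the dimmest 20% of genes were left out. A further 3 probe sets carry the symbols of several Sprr2 genes, were assigned to no gene and entered no test, and all 3 were lower in CD34+ samples without overlap. The brightest was at 8.75, 10.19, 10.14, 10.97 and 10.69 in CD34+ samples and 11.04 to 11.71 in CD34- samples, a difference of -1.28. It was as bright as Sprr1a, and its direction is opposite to that of most members. The other 2 differed by -2.74 and -0.85. The one at -2.74 was at 3.741 on CD34+ array 1 and at 7.888 to 9.695 on the other CD34+ arrays.

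S100 fused-type proteins are long repeat proteins of the granular layer. Hornerin (Hrnr), a filaggrin-like member, was at 8.57, 9.48, 9.31, 8.79 and 8.81 in CD34+ samples and 6.59 to 8.47, median 7.49, in CD34- samples. No array overlapped, and the difference was 1.44 (SE 0.32, 2.71-fold, limma adjusted p = 0.00685). Filaggrin (Flg), which bundles keratin filaments and then breaks down to moisturizing amino acids, was 10.47, 9.49, 9.75, 7.74 and 8.56 against 6.86 to 9.97, median 7.26. CD34- arrays 1 and 2, at 9.97 and 9.52, lay within the range of CD34+ arrays 1 to 3, while the other CD34- arrays were all under every CD34+ array. Flg was not called (1.18, SE 0.60, limma adjusted p = 0.16), and the model with the actin ratio gave -0.25 (limma adjusted p = 0.934).

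Repetin (Rptn), another S100 fused-type member, fell below the filter at the gene level. It was at 8.82, 7.62, 6.68, 6.89 and 6.40 in CD34+ samples and 3.68 to 6.00, median 5.48, in CD34- samples, with no overlap. The difference was 2.00 and was called in the fit without a filter (limma adjusted p = 0.0178). Its 2 other probe sets were dimmer and gave 0.75 and 0.85. Trichohyalin (Tchh), a protein of the inner root sheath and hair medulla, was at 10.51 on CD34+ array 1 and 6.97 to 7.995 on the other 4, against 7.07 to 8.70. It was not called (0.35, SE 0.54, limma adjusted p = 0.658), and its difference was -0.26 without CD34+ array 1. With the actin ratio in the model the Tchh difference was -1.003, also not called (limma adjusted p = 0.61). The same array had a summed signal of 12591 for 7 hair shaft markers, against 471 to 755 on the other CD34+ arrays and 395 to 676 on CD34- arrays, and none of the 3 tested hair shaft markers was called. The 2 brightest hair shaft markers, Krt31 and Msx2, were at 1.55 and 0.55. Krt31 was at 12.36 on CD34+ array 1 and at 6.71 to 7.44 on the other CD34+ arrays. The part of these hair RNAs in the Tchh value was not tested.

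Loricrin (Lor), the main mass of the envelope, was higher in CD34+ samples. It measured 13.66, 14.50, 14.16, 13.11 and 12.45, against 12.08 to 13.20 with a median of 12.36 in CD34- samples. CD34+ arrays 4 and 5 lay within the CD34- range and arrays 1 to 3 above it. The difference was 1.02 (SE 0.32, 2.02-fold, limma adjusted p = 0.0357), and its 2 other probe sets gave 1.23 and 1.00. The call was lost without CD34+ array 2 or 3 or CD34- array 3, 4, 5 or 6, and the difference was 0.23 once the actin ratio was in the model. The Lor promoter is shown for contrast with the Lce1 windows. Capitals mark TGAGTCA, a form of the AP-1-type letters TGANTCA, where N is any base.
Lor, chr3:92083143-92083242, minus strand: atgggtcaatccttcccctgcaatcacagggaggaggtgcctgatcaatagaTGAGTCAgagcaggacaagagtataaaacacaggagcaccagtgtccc
TGANTCA, read on both strands over the same 250 bases, was found in 14 of the 33 members outside Lce1 with a promoter, among them Lor, Ivl, Flg, Rptn and all 7 Sprr genes other than Sprr3 that had one. It was in 0 of the 10 Lce1 promoters and in 6.75% of all promoters. The Grainyhead-type letters AACCNGTT were in 2 of the 33, in 0 of the 10 and in 1.79% of all. TATAAA was in 15 of the 33 and in 2 of the 10, against 12.4% of all. Members were again counted by gene, and the shares of all by single promoter.

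Involucrin (Ivl), an early scaffold protein of the envelope, was not called. Ivl was at 9.44, 9.79, 10.14, 9.60 and 9.75 in CD34+ samples and 9.28 to 10.59, median 9.60, in CD34- samples, with full overlap (-0.05, SE 0.23, limma adjusted p = 0.889). Cornifelin (Cnfn), a minor envelope protein, was at 8.59, 9.37, 9.11, 6.57 and 7.48 against 6.71 to 8.16, median 6.9995. It was not called (1.07, SE 0.45, limma adjusted p = 0.0919), and without CD34+ array 4 it was, at 1.49, while the model with the actin ratio gave -0.21.

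Of the crosslinking enzymes, transglutaminase 5 (Tgm5) had the largest difference of any member. Its signals were 13.55, 11.26, 11.74, 12.91 and 12.95 on CD34+ arrays 1 to 5, and 9.29 to 9.86 with a median of 9.49 on CD34- arrays. The lowest CD34+ array was well above the highest CD34- array. The difference was 2.93 (SE 0.33, 7.60-fold, limma adjusted p = 5.62e-05), and it was 2.97 in the model with the actin ratio (limma adjusted p = 0.018). The order of the CD34+ arrays differed from that of the Lce1 genes: Tgm5 was lowest on arrays 2 and 3, where the Lce1 median was highest. Cd34 itself was also lowest on those arrays, at 10.54 and 10.59, against 12.55 to 12.92 on the other 3. The gene has 1 probe set on the array. The Tgm5 promoter lies on another chromosome and holds none of the 4 searched motifs.
Tgm5, chr2:121085842-121085941, minus strand: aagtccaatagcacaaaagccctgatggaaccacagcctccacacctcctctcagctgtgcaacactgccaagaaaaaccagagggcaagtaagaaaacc

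Transglutaminase 1 (Tgm1), the membrane-anchored enzyme that joins the envelope to its lipids, was at 8.21, 6.56, 7.52, 6.53 and 6.84 in CD34+ samples and 6.02 to 7.26, median 6.41, in CD34- samples. The fractions overlapped and it was not called (0.66, SE 0.35, limma adjusted p = 0.172), with -0.11 once the actin ratio was in the model. Transglutaminase 3 (Tgm3), which acts on loricrin and trichohyalin, lay below the filter, at 5.45, 7.36, 6.27, 5.55 and 4.83 against 5.90 to 7.52, a difference of -0.63.

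**Figure D3:**
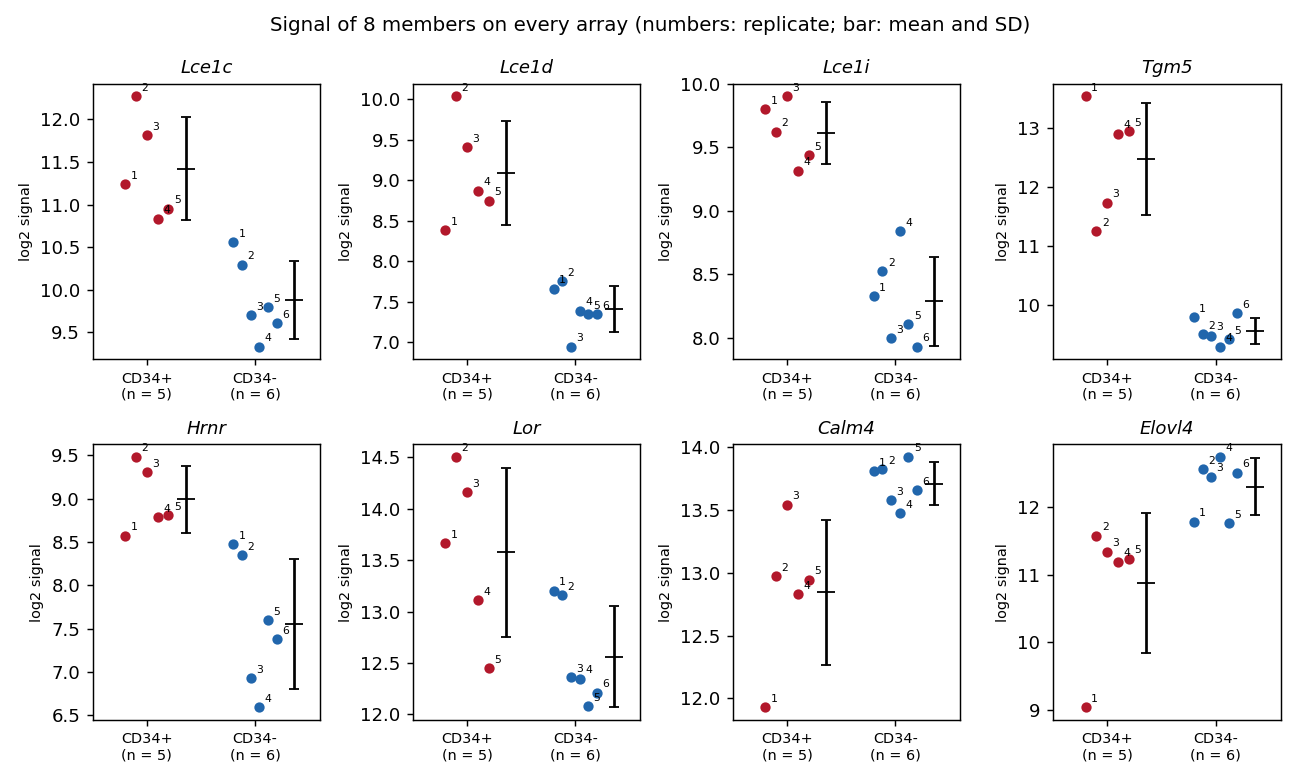
Log2 signal (vertical axis) of 8 members on every array, numbered by replicate, for the CD34+ (n = 5) and CD34- (n = 6) fractions, with bars for mean and SD. Lce1c, Lce1d, Lce1i, Tgm5 and Hrnr are higher on every CD34+ array, and Elovl4 is lower on every one. The fractions overlap for Lor through CD34+ arrays 4 and 5, and for Calm4 through CD34+ array 3.

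The scaffold, adhesion and calcium-binding members were called in both directions. Periplakin (Ppl), a plakin that lines the membrane before loricrin is added, was at 11.10, 11.83, 12.21, 11.86 and 12.02 in CD34+ samples and 12.21 to 12.50, median 12.37, in CD34- samples. The fractions touched only at CD34+ array 3, and Ppl was lower in CD34+ samples (-0.56, SE 0.16, limma adjusted p = 0.0246), a call that was lost without CD34- array 4. Envoplakin (Evpl), its partner, was at 9.19, 10.26, 11.25, 9.98 and 9.76 against 10.38 to 10.76 and was not called (-0.50, SE 0.27, limma adjusted p = 0.186). CD34+ array 3 lay above all CD34- arrays and the other 4 below them, and without array 3 Evpl was called lower, at -0.79.

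Corneodesmosin (Cdsn), an adhesion protein of the cornified desmosome, was at 9.54, 10.81, 10.42, 9.74 and 9.75 in CD34+ samples and 9.17 to 9.64, median 9.47, in CD34- samples. Only CD34+ array 1 fell within the CD34- range. Cdsn was higher (0.62, SE 0.21, limma adjusted p = 0.0442), and the call was lost without CD34+ array 2 or 3 or any 1 of the 6 CD34- arrays. Calm4, a calmodulin-like calcium binder of the epidermis also known as Scarf, was at 11.93, 12.97, 13.54, 12.83 and 12.95 against 13.47 to 13.92, median 13.73. The fractions overlapped only through CD34+ array 3. Calm4 was lower in CD34+ samples (-0.87, SE 0.21, limma adjusted p = 0.0104) and remained so with any 1 array left out, while its difference was -0.45 once the actin ratio was in the model.

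The related calcium binder Calml3 was at 13.95 to 14.27 in CD34+ samples and 13.73 to 14.15 in CD34- samples and was not called (0.25, SE 0.10, limma adjusted p = 0.0881). Sfn, the keratinocyte 14-3-3 protein, was at 8.52 to 9.32 against 8.80 to 9.71 (-0.26, SE 0.20, limma adjusted p = 0.348).

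Of the 4 secreted or proteolytic members 2 were higher by under 1 log2 unit, where 12.4% of all tested genes were called higher. Suprabasin (Sbsn) and dermokine (Dmkn), secreted proteins of the suprabasal layers encoded side by side with Krtdap, were among the brightest members. Sbsn was at 15.78, 15.20, 15.32, 14.63 and 14.63 in CD34+ samples and 14.26 to 14.69, median 14.52, in CD34- samples (0.60, SE 0.18, limma adjusted p = 0.0298). CD34+ arrays 4 and 5 lay within the CD34- range. Its other probe sets gave 0.62 and 0.02, and the call was lost without CD34+ array 2 or 3 or CD34- array 2, 4, 5 or 6. Dmkn was at 15.15, 14.34, 14.62, 14.17 and 14.32 against 13.76 to 14.32, median 13.98 (0.54, SE 0.16, limma adjusted p = 0.0299). Only CD34+ array 4 lay clearly within the CD34- range, and its call was lost without CD34+ array 3 or CD34- array 2, 3, 4 or 6. In the model with the actin ratio the differences were -0.03 for Sbsn and 0.10 for Dmkn. Krtdap, a peptide of differentiating keratinocytes, ranged from 12.77 to 14.39 and from 13.28 to 13.997 (0.08, limma adjusted p = 0.816). Asprv1, the protease that processes filaggrin, ranged from 9.88 to 10.74 and from 9.72 to 10.42 (0.30, limma adjusted p = 0.231).

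Of the 5 lipid barrier members 4 were tested, with a median of 0.12. None was called higher and 1 was lower, where 12.4% and 12.3% of all tested genes were. Elovl4, the elongase that makes the ultra-long fatty acids of skin ceramides, was at 9.04, 11.58, 11.34, 11.19 and 11.24 in CD34+ samples and 11.76 to 12.74, median 12.48, in CD34- samples. The fractions did not overlap, and CD34+ array 1 stood far below the other 4. The difference was -1.42 (SE 0.37, 2.68-fold lower, limma adjusted p = 0.0152), and it was -0.96 without CD34+ array 1. A second Elovl4 probe set gave -0.17 (limma adjusted p = 0.745), the mean of both gave -0.80, which was not called, and the model with the actin ratio gave -0.48.

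Aloxe3, a lipoxygenase that acts on the ceramides before they are bound, was at 8.31, 8.08, 8.28, 7.36 and 7.53 in CD34+ samples. In CD34- samples it was at 6.92 to 7.62, median 7.37. CD34+ arrays 1 to 3 lay above the CD34- range. Aloxe3 was not called (0.57, SE 0.23, limma adjusted p = 0.0784) unless CD34+ array 4 was left out, at 0.71. Its partner Alox12b was dim, at 1.70 to 7.13 against 2.41 to 6.54. Abca12, the lipid transporter of lamellar granules, was at 8.33 to 9.11 against 8.28 to 9.01 (0.31, SE 0.18, limma adjusted p = 0.221). Cers3, the ceramide synthase that uses the products of Elovl4, was at 10.03 to 10.41 against 10.13 to 10.46 (-0.08, SE 0.12, limma adjusted p = 0.631).

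By position, the higher members lay mostly in the epidermal differentiation complex on chromosome 3. Of 30 members there, 16 were tested, 10 were higher and none was lower, with a median of 1.22. Of the 19 members elsewhere, 17 were tested, 4 were higher and 3 lower, with a median of 0.30. Leaving out the Lce1 genes, the complex held 7 tested members, of which Lor and Hrnr were higher, and the median was 0.65. Outside Lce1 as a whole, 24 members were tested, 6 (25%) were higher and 3 (12.5%) lower, with a median of 0.33. Of all tested genes 12.4% were called higher and 12.3% lower, so the lower share of these 24 is near that of all genes. The difference between positions was not tested, and 9 of the 16 tested genes of the complex are Lce1 paralogs.

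**Figure D4:**
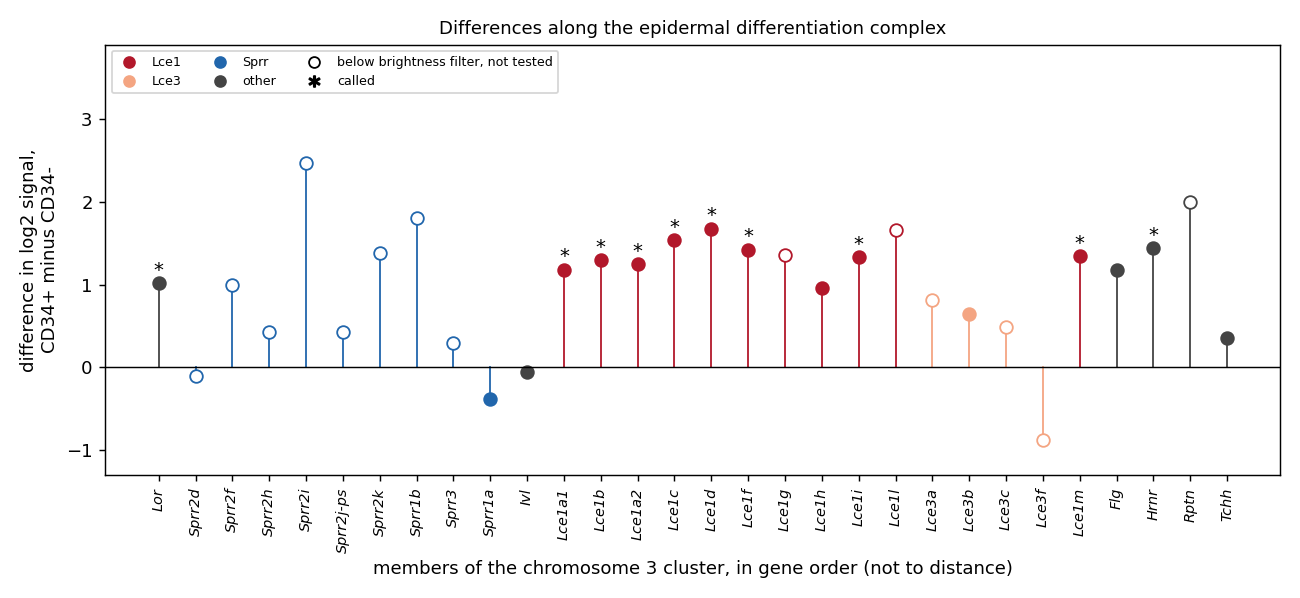
Difference in log2 signal, CD34+ minus CD34- (vertical axis), of the 30 members of the chromosome 3 complex in gene order, not to distance (horizontal axis). Filled points were tested, open points lay below the brightness filter and stars mark called genes. The Lce1 points from Lce1a1 to Lce1l all lie above 0, as does Lce1m beyond the Lce3 genes.

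Within the CD34+ fraction the Lce1 level varied from array to array. Relative to the CD34- mean, the median of the 9 tested Lce1 genes was 1.24, 1.68, 1.98, 0.94 and 0.98 across CD34+ samples 1 to 5. In CD34- samples 1 to 6 it was 0.43, 0.29, -0.17, -0.09, -0.18 and -0.15. All CD34+ arrays lay above all CD34- arrays, and CD34- arrays 1 and 2 were the highest of theirs. The median of the 24 other tested members was 0.11, 0.36, 0.71, -0.02 and 0.22 in the CD34+ samples, overlapping the -0.21 to 0.19 of the CD34- samples. T cell markers moved the other way. The summed signal of the 6 T cell markers on the array was 543 to 2554 in CD34+ samples. In CD34- samples it was 3229 to 6321, lowest in each fraction on CD34+ array 1 and CD34- arrays 1 and 2. Of these 6 markers, 5 were tested and all 5 were lower in CD34+ samples, with Ptprc at -1.81 and Thy1 at -1.20, and none was at 0 on any array. The summed signal of 5 melanocyte markers was 22230 and 24909 on CD34- arrays 1 and 2, against 4572 to 6421 on the other CD34- arrays and 7319 to 13597 on CD34+ arrays. Lor and Flg, like the Lce1 median, were higher on those 2 CD34- arrays than on the other 4. Of the 5 melanocyte markers 1 was called, Mitf at 1.42, and Dct was at -0.50. The part of the T cell and melanocyte RNA, of the RNA length and of the differing makeup of the arrays in the envelope gene differences was not tested.

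**Figure D5:**
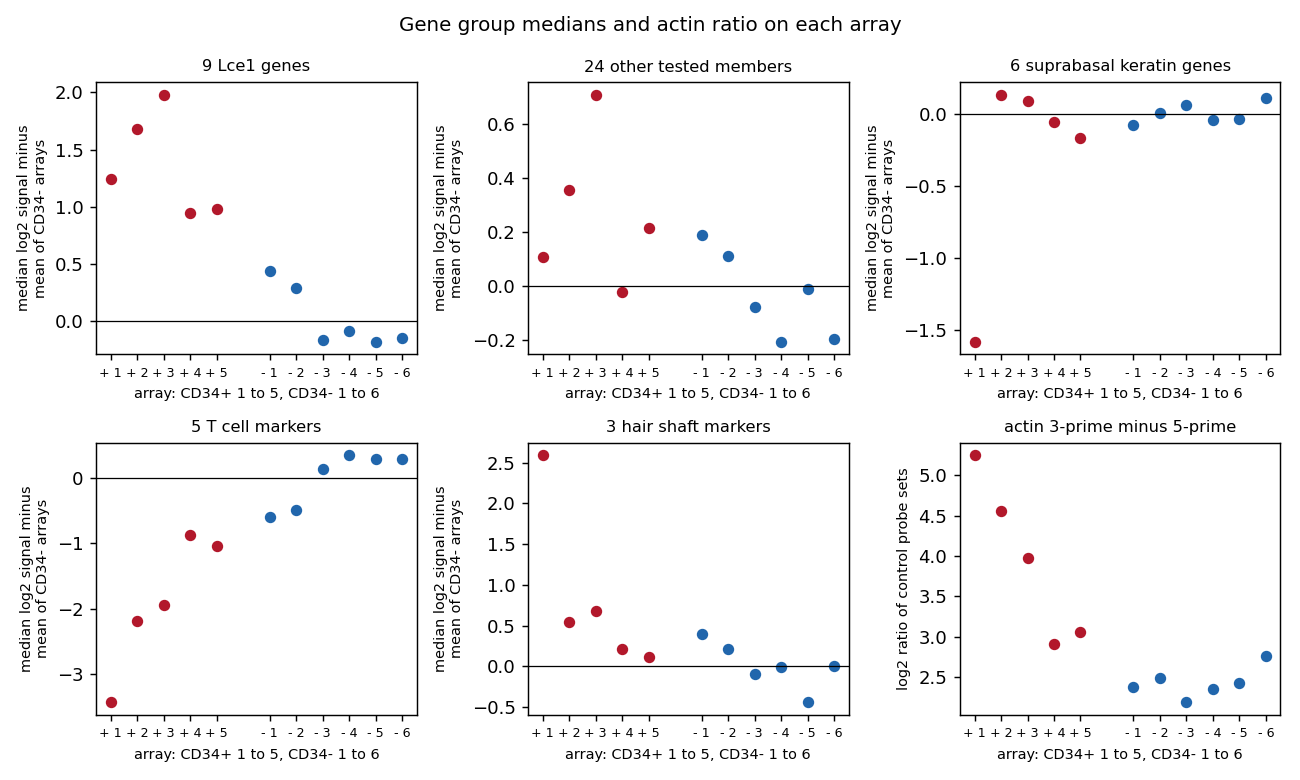
Median log2 signal of 5 gene groups on each array, relative to the mean of the CD34- arrays, and the actin log2 ratio (vertical axes), for CD34+ arrays 1 to 5 in red and CD34- arrays 1 to 6 in blue (horizontal axes). The Lce1 median is 0.94 to 1.98 on CD34+ arrays, the T cell median is lower there, and CD34+ array 1 stands apart for hair shaft markers and suprabasal keratins and has the largest actin ratio.

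Markers of the fractions were checked. Cd34 was at 11.83 ± 1.17 (SD, n = 5) in CD34+ samples and 4.20 ± 1.57 (SD, n = 6) in CD34- samples, and all 9 bulge markers, among them Postn at 3.01 and Nfatc1 at 1.02, were higher. The basal keratinocyte markers Krt5 (-0.07) and Dst (0.01) were bright in both fractions and not called. Of the 9 tested basal markers none was higher and 2 (22.2%) were lower, with a median of -0.28. Those 2, named after their values were seen, were Itga6 at -0.53 and Trp63 at -0.38. Other scalings gave Krt5 a call, at -0.44 with quantile normalization and -0.55 with equal array medians, and Dst was at -0.47 with the latter. None of 5 upper follicle and infundibulum markers was called, with the brightest, Krt79 and Defb6, at -0.08 and 0.26. Their differences ran from -0.78 to 0.26 with a median of -0.54, and only 1 was above 0. Fibroblast genes were higher in CD34+ samples (3 of 3 tested, Col1a2 at 3.49 and Dcn at 1.53), with a summed signal of the 6 markers of 3086 to 8701 against 487 to 856. So were 3 of 6 myeloid markers, including H2-Aa at 0.95 and Csf1r at 1.20. Over all tested genes, arrays of 1 fraction correlated at 0.865 to 0.976 for CD34+ and 0.965 to 0.983 for CD34-.

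For other lists of epidermal differentiation, counts are read against the 12.4% of all tested genes called higher and the 12.3% called lower. Of 9 tested suprabasal and stress keratins 2 were higher and 2 lower, with a median of -0.26. Krt6a, a keratin of the companion layer and of stressed epidermis, was 2.10 higher (SE 0.52, limma adjusted p = 0.0115). Krt10, the main keratin of the spinous layer, was 0.36 higher, while its partner Krt1 was -0.82 and Krt80 -0.37. With each of the 11 arrays left out in turn, the call of Krt10 was lost 7 times, that of Krt1 10 times and that of Krt80 9 times, and Krt10 was at -0.10 after quantile normalization and -0.12 with equal array medians. The summed signal of the 6 suprabasal keratinocyte markers was 57689 on the lowest CD34+ array and 96206 on the highest. It was 73039 to 83201 on CD34- arrays. Krt10, the brightest of the 6, weighs most in this sum and was the only 1 with a difference above 0. Of the 6, 1 was higher and 2 lower, with a median of -0.37. Krt77, the next brightest, was at -0.56 and not called, with 11.42 on CD34+ array 1.

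Of 12 tested desmosome genes 1 was higher and 2 lower, or 8.33% and 16.7%, with a median of -0.03, and these shares are near those of all tested genes. They were desmoplakin (Dsp) at 0.50, plakophilin 3 (Pkp3) at -0.73 and desmoglein 1 beta (Dsg1b) at -0.88. With each of the 11 arrays left out in turn, the call of Dsg1b was lost 7 times. Dsp was at 0.11 and not called with quantile normalization. Among 20 tested proteases and inhibitors 4 were higher and 4 lower, 20% each. Spink5, the inhibitor of the kallikreins that shed corneocytes, was at 12.59 ± 0.13 (SD, n = 5) in CD34+ and 11.60 ± 0.10 (SD, n = 6) in CD34- samples, a difference of 0.98 (SE 0.10, limma adjusted p = 3.56e-05). The cystatin Csta1, a protease inhibitor built into the envelope, was 1.48 higher. The calpain Capn1 (-1.67) and the serpin Serpinb2 (-1.38) were lower.

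Of 25 further lipid barrier genes tested, 4 (16%) were higher and 2 (8%) lower, near the shares of all tested genes, with a median of -0.20. Nipal4, known from inherited ichthyosis, and the ceramide desaturase Degs1 were higher, at 0.71 and 0.63. Prosaposin (Psap), the precursor of activators of glucosylceramide breakdown, was at -0.99 and the sphingosine phosphate lyase Sgpl1 at -0.52. The Sgpl1 call was lost in 8 of the 11 fits with 1 array left out. Among 30 tested transcription factors of epidermal differentiation 4 (13.3%) were higher and 7 (23.3%) lower, with a median of -0.30. The vitamin D receptor Vdr (0.83) and Tfap2b (0.78) were higher, and the nuclear receptors Rora (-1.08) and Rxra (-0.65) lower. Klf4 and Grhl3, regulators of barrier formation named after their values were seen, were at 0.08 and -0.05 and not called. Of 8 tested S100 genes, whose products bind calcium and which lie within and beside the same complex, S100a4 (2.71), S100a6 (1.35) and S100a1 (0.91, named after its value was seen) were higher and S100a14 (-1.76) was lower.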

How the data were processed

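Per the submitters' processing notes, the authors made 1 signal value per probe set and array with MAS5. The deposited values are on the log2 scale, as the values themselves show: the linear mean after trimming 2% from each end was 500.002 to 500.004 on all 11 arrays. Which MAS5 version and settings were used is not given in the sources. No further normalization was applied and no detection calls were used, so a low value is dim and not absent.

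Of 45101 probe sets, 34945 had 1 symbol in the platform annotation, 932 had several, 9160 had none and 64 were controls. Each of the 18193 genes was represented by its brightest probe set, the dimmest 40% were left out and 10916 were tested. The fractions were compared with limma 3.58.1 in R 4.3.3 (linear model, empirical Bayes with an intensity trend, Benjamini-Hochberg adjustment over all tested genes). Standard errors are from limma. The step was tested on simulated data. Groups came from the sample titles. Precision is limited by how many arrays there are.

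The members and lists were chosen with earlier results of these data known. Every member is named, and of each other pathway list the 2 called genes with the smallest p in each direction. Of the 2 brightest markers of each cell type, those of types not described are left unprinted. Alternatives were other scalings, filters, offsets, summaries and moderation, an exact rank-sum test, the actin ratio as a covariate, a block for replicate numbers and fits without single arrays. Promoters came from a RefSeq table (GRCm38.p6) that held 43 of the 49 members.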

Additional observations from a re-analysis of the deposited data

Results flagged for a closer look

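Among 98 groups of 5 or 6 arrays, each the values of 1 member in 1 fraction, 4 held an array far from the others, and chance alone sets apart about 1 in 20 such groups. Elovl4 was at 9.04 on CD34+ array 1 and at 11.19 to 11.58 on the other CD34+ arrays, and Abca12 was at 8.33 on the same array and at 8.98 to 9.11 on the others. Sfn was at 8.52 on CD34+ array 4 and at 9.10 to 9.32 on the others. Sprr2j-ps, below the brightness filter, was at 4.93 on CD34- array 6 and at 2.40 to 3.11 on the other CD34- arrays.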

How the results depend on the processing

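Lce1a1, Lce1a2, Lce1b, Lce1c, Lce1d, Lce1i, Lce1m, Hrnr and Tgm5 were called higher, and Calm4 and Elovl4 lower, with all arrays and with any 1 array left out. With 1 array left out, 9 to 16 members were higher and 2 to 4 lower, with a median difference of 0.47 to 0.72. Over all genes 969 to 1370 were then higher and 896 to 1419 lower, 1865 to 2789 in all, with the 896 without CD34- array 4. With CD34+ arrays 1 and 2 both left out, 9 members were higher and 2 lower. With equal array medians 395 genes were higher and 5217 lower, 5612 in all. Of the members 9 were higher and 7 lower, with a median of 0.14. With the actin ratio in the model 96 genes were higher and 30 lower, 126 in all, with 1 and 0 members. At an adjusted p under 0.01 there were 548 higher and 456 lower, 1004 in all, with 9 and 0 members. With the dimmest 60% left out 743 genes were higher, and with the mean of probe sets 783 were lower and 1756 called in all. Quantile normalization gave 12 and 2 members, and the exact rank-sum test 10 and 3. Called values that changed sign were Sbsn at -0.034 with the actin ratio and Krt10 at -0.10 with quantile normalization and -0.12 with equal array medians. Dst, not called before, was called at -0.47 with equal array medians. Members that were not called also changed sign without gaining a call. Flg, Cnfn, Tchh and Tgm1 were at -0.25, -0.21, -1.003 and -0.11 with the actin ratio. Abca12, Asprv1, Calml3 and Krtdap were at -0.17, -0.18, -0.23 and -0.40 with equal array medians. Ivl, near 0 throughout, changed sign as well. The cause of these moves was not tested. Same-numbered arrays of the 2 fractions deviated together at correlations of 0.02 to 0.19, and arrays of different numbers at -0.23 to 0.20. These overlapping ranges cannot decide whether the numbers pair the samples. The main model treats the samples as unpaired. With the replicate number as a random block (correlation 0.0759) 14 members were higher and 3 lower, 1486 genes were higher and 1490 lower, 2976 in all, the median of the members was 0.62, and no member's call changed. Dim probe sets limit what can be said of the Sprr and Lce3 genes.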
